A study of Mus musculus with 8 samples.

Results

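Matrix metalloproteinases (MMPs) and the tissue inhibitors of metalloproteinases (TIMPs) were followed as 10 genes, taken by symbol from a table of 19457 genes: Mmp2, Mmp3, Mmp9, Mmp10, Mmp11, Mmp13, Mmp14, Timp1, Timp2 and Timp3. RNA was sequenced from primary cultures of mouse skin keratinocytes, the main cell type of the epidermis, taken while still short of confluence. HdR cultures (4 libraries) came from HOIL1 ΔRING1 mice, whose allele is named for the RING1 domain of HOIL-1L, a protein of the complex that builds linear ubiquitin chains, and WT cultures (4 libraries) came from wild-type mice. The labels name no treatment, age or strain. They are also silent on whether libraries of the same genotype stem from different mice or plates, so the p-values measure only the spread between these libraries.

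MMPs are zinc-dependent endopeptidases that are made as inactive precursors and cut collagens, laminins and other proteins of the extracellular matrix. TIMPs bind the active site of the mature enzymes and block it, and TIMP-2 also takes part in the activation of pro-MMP-2 by the membrane enzyme MMP-14. In skin, MMP transcripts are known from migrating keratinocytes at wound edges and from dermal fibroblasts and inflammatory cells.

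The HdR libraries held 2.31 to 4.31 Gb of aligned bases and the WT libraries 4.78 to 5.43 Gb, with every HdR library shallower than every WT library. With each library thinned to the smallest total, the calls described here for Mmp2, Mmp9, Mmp13, Timp2 and Timp3 were kept. Rbck1, which encodes HOIL-1L, was at 43.7 ± 1.87 aligned bases per Mb in HdR and 87.5 ± 3.4 in WT (SD, n = 4 each). All 12 keratinocyte markers were detected, led by Krt5 and Krt14. Of these, 4 were called higher in HdR and 3 lower, where 21.2% and 23.8% of all tested genes were. Krt1, Krt10 and Lor were lower, with log2 fold changes of -1.4, -2.05 and -0.75. Krt5, Itga6, Itgb4 and Col17a1 were higher, at 0.11, 0.28, 0.43 and 0.14. The summed level of the 12 was 56200 to 58000 aligned bases per Mb in HdR and 53500 to 57900 in WT. Most of it came from Krt5, Krt14 and Krt6a, so it says little about the other markers. HdR 2 stood apart in 1 respect that touches these genes, a summed level of 19 fibroblast markers of 19.5 aligned bases per Mb, against 7.23 to 7.82 in the other HdR libraries and 7.38 to 9.34 in WT.

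Of the 10 genes, 7 reached the mean of 1 aligned base per Mb that the test required. By limma adjusted p under 0.05, Mmp9 and Timp2 were higher in HdR, Mmp2, Mmp13 and Timp3 were lower, and Mmp3 and Mmp14 were not called. Against these 5 calls stand 45% of 11870 genes called in either direction, 21.2% higher and 23.8% lower. HdR and WT values were fully separated for 5 of the 7, where 41.1% of the tested genes showed such a separation. The median absolute log2 fold change was 0.722 over the 7 and 0.152 over all tested genes. The 10 genes were chosen with earlier results of these data known, so these comparisons with all genes are description only. Of the 7 tested MMP genes outside the 10, 1 was higher and 2 were lower. Mmp10 and Timp1 lay just under the filter, with means over 8 libraries of 0.997 and 0.996 aligned bases per Mb, and Mmp3 lay nearest above it at 2.39. Mmp11 was far below, at 0.0731.

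**Figure D1:**
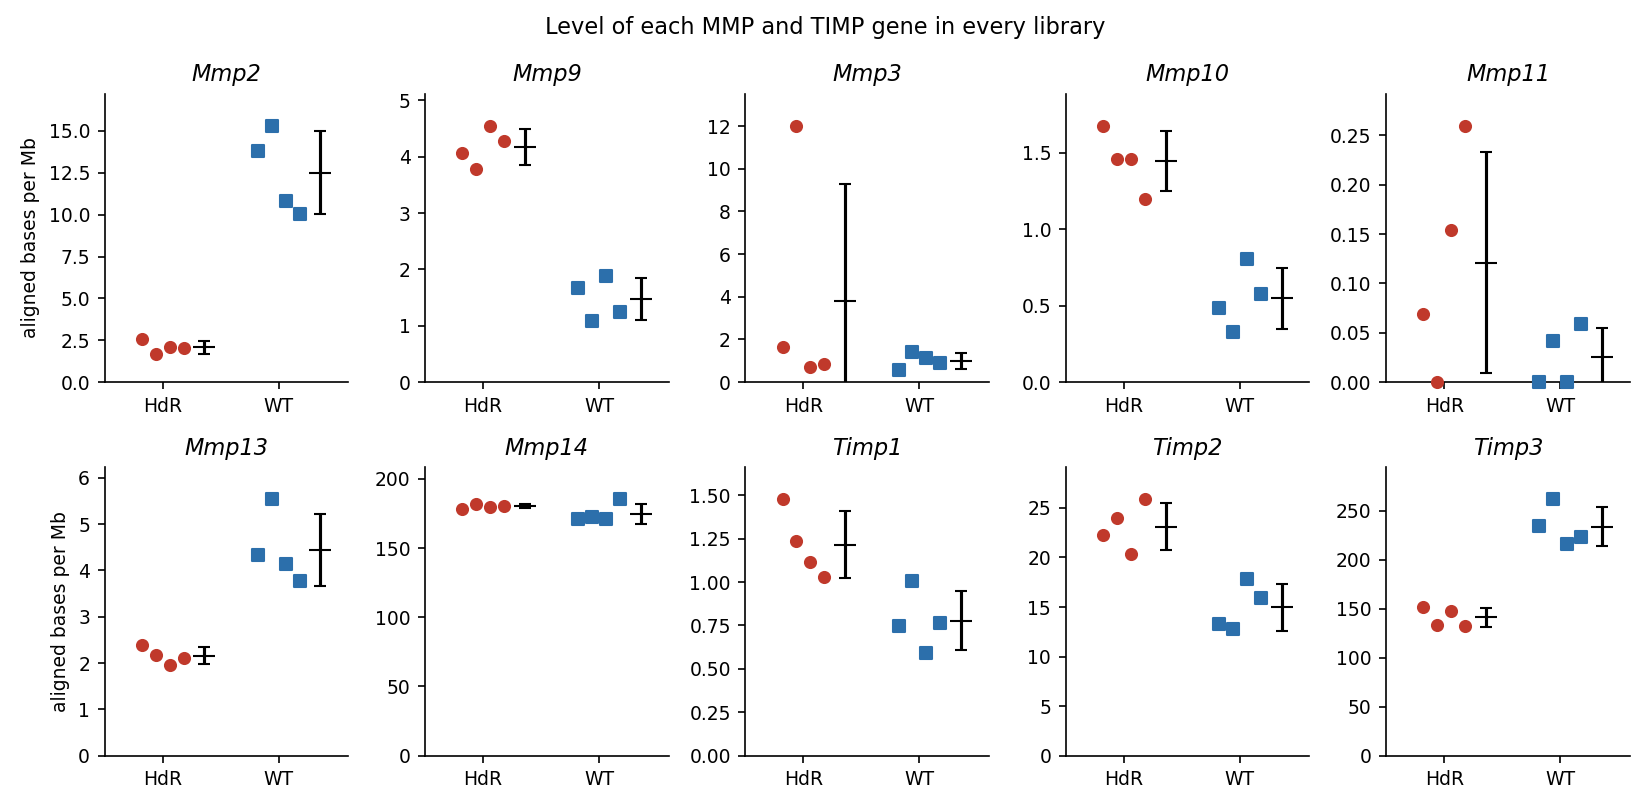
Level of each gene (vertical axis, aligned bases per Mb of library, from 0) in the 4 HdR libraries (red circles) and the 4 WT libraries (blue squares), in order of replicate number from left to right; black bars give the mean ± SD and end at the axis where they would pass below 0. The genotypes do not overlap in the panels of Mmp2, Mmp9, Mmp10, Mmp13, Timp1, Timp2 and Timp3, and a single HdR library at 12.0 sets the mean of Mmp3.

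Levels of different genes were compared only after division by the length of their exons. On this scale Mmp14 led in both genotypes, at 30.2 ± 0.246 aligned bases per Mb per kb in HdR and 29.3 ± 1.19 in WT (SD, n = 4 each). Timp3 was next, at 17.3 ± 1.21 in HdR and 28.7 ± 2.47 in WT. The Timp3 and Mmp14 libraries did not overlap in HdR, where Timp3 reached at most 18.6, but they overlapped in WT, where Timp3 ranged from 26.5 to 32.1 and Mmp14 from 28.6 to 31.1. Timp2 stood in the third place of both orders, at 5.93 ± 0.614 in HdR and 3.84 ± 0.599 in WT. Mmp2 held place 9 of 10 in HdR, at 0.622 ± 0.115, and place 4 in WT, at 3.71 ± 0.736, where its range overlapped that of Timp2. The order of the remaining genes in HdR was Mmp3, Timp1, Mmp9, Mmp10 and Mmp13, between 2.11 and 0.808. Ranges of neighbours overlapped except for Mmp9 and Mmp10. Mmp3 was at 2.11 ± 3.05 in HdR, from 0.386 to 6.68, the last in HdR 2. Its place, and with it that of Mmp2 in HdR, therefore depends on this library. In WT it was Mmp13, Timp1, Mmp3, Mmp9 and Mmp10, between 1.66 and 0.318, with overlap between all neighbours in this list except Mmp13 and Timp1. Mmp11 was last in both. These orders assume that all annotated exons are in use, since the table has no values per isoform.

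**Figure D2:**
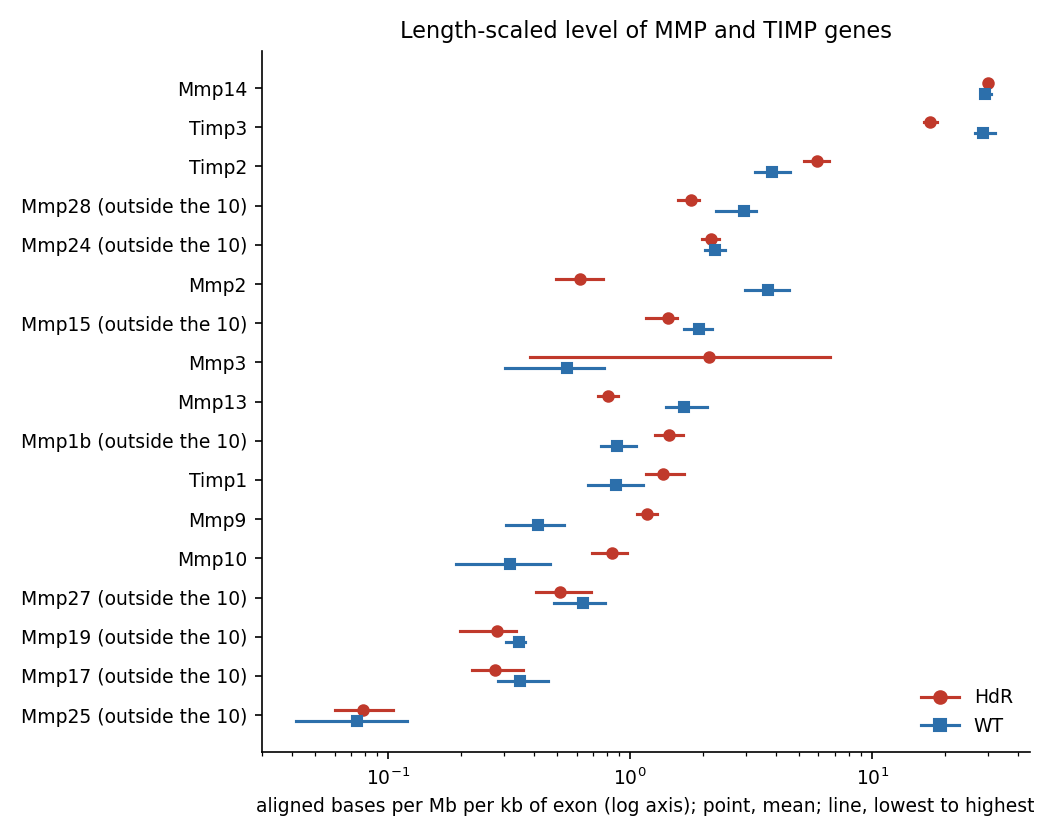
Length-scaled level (horizontal log axis, aligned bases per Mb per kb of exon) of the 17 MMP and TIMP genes with a mean of at least 0.05, HdR in red above WT in blue; points are means and lines run from the lowest to the highest of 4 libraries. Mmp14, Timp3 and Timp2 lie above all others in both genotypes, apart from Mmp2 and Mmp28 in WT and the highest HdR library of Mmp3, which reach the range of Timp2.

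The gelatinases, which degrade denatured collagen and the type IV collagen of basement membranes, differed in opposite directions. Mmp2, the gene of gelatinase A (GRCm38 chromosome 8, 92827291 to 92853420, plus strand), was at 2.60, 1.66, 2.08 and 2.04 aligned bases per Mb in HdR 1 to 4, against 13.8, 15.3, 10.8 and 10.1 in WT 1 to 4. Every HdR library lay below every WT library, and the HdR mean was 16.8% of the WT mean. The log2 fold change was -2.12 ± 0.13 (SE, limma adjusted p = 1.87e-09), and 4 of the 11870 tested genes fell further. These values rest on 16 to 37 read-pair equivalents in an HdR library and 170 to 244 in a WT library.

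Mmp9, the gene of gelatinase B (chromosome 2, 164940780 to 164955850, plus strand), was at 4.07, 3.79, 4.55 and 4.27 aligned bases per Mb in HdR, against 1.67, 1.08, 1.89 and 1.24 in WT. All 4 HdR libraries lay above the highest WT library. The HdR mean was 2.84 times the WT mean, and the log2 difference was 1.08 ± 0.12 (SE, limma adjusted p = 2.58e-06). Of all tested genes, 46 rose further. The limma calls of Mmp2 and Mmp9 were kept in each alternative in which they were tested, but their size depends on the pseudocount, and with 5 in place of 1 their log2 fold changes were -1.29 and 0.51.

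Within each library the order of the gelatinases turned with genotype. Per kb of exon, Mmp9 over Mmp2 was 1.49, 2.17, 2.09 and 1.99 in HdR 1 to 4, against 0.115, 0.0672, 0.166 and 0.117 in WT 1 to 4. Mmp9 thus exceeded Mmp2 in 4 of 4 HdR libraries and in 0 of 4 WT libraries. In bulk RNA, fewer cells of a type and less RNA per cell cannot be told apart.

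Marker genes of other cells that make gelatinases were read beside these values. Fibroblast markers were near 0 in both genotypes: 17 of the 19 with a row were below 1 aligned base per Mb on average, the most abundant were Vim and Thy1, Dcn was at 0 in every HdR library and Col1a2 at 0 in every WT library. Of the 2 tested fibroblast markers, Thy1 was lower (log2 fold change -0.39 ± 0.13, limma adjusted p = 0.0239) and Vim was not called. Without HdR 2, the log2 fold changes were -2.05 for Mmp2 and 1.11 for Mmp9. Of the melanocyte markers 7 of 10 were tested, and 6 fell and 0 rose, where 23.8% of all tested genes fell and 21.2% rose. Their summed level was 27.7 to 29.7 aligned bases per Mb in HdR and 53.1 to 61.3 in WT, led by Tyrp1 and Dct. Their part in the lower Mmp2 was not tested. Of the macrophage and Langerhans cell markers, Adgre1, Lyz2 and Cd207 were listed at 0 in every library and Ptprc in every HdR library, and the neutrophil gene Elane was listed at 0 throughout. Of the 3 tested macrophage markers Cd14 was higher and Cd68 and Itgam were lower, and all 3 tested neutrophil and mast cell markers were lower, among them S100a8 and S100a9, which keratinocytes also express. The summed levels were 48.2 to 49.8 and 869 to 1180 aligned bases per Mb in HdR, and 56.6 to 70.7 and 1730 to 2530 in WT. Most of the macrophage sum came from Cd68, at 39.5 in HdR and 56.4 in WT, and most of the other from S100a8 and S100a9. The part of these markers in the Mmp9 level was not tested. Endothelial, T cell and pericyte markers were mostly under the filter too. Their summed levels were 8.33 to 10.5, 0.0834 to 0.449 and 300 to 320 aligned bases per Mb in HdR. In WT the same sums were 6.12 to 7.84, 0.588 to 1.26 and 280 to 293. Egfl7, which was not called, made up most of the endothelial sum, and Acta2 most of the pericyte sum. All 3 tested muscle and pericyte markers were called, against 21.2% of all tested genes higher and 23.8% lower. Acta2 and Tagln were higher and Myl9 was lower, with log2 fold changes of 0.15, 0.51 and -0.51.

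**Figure D3:**
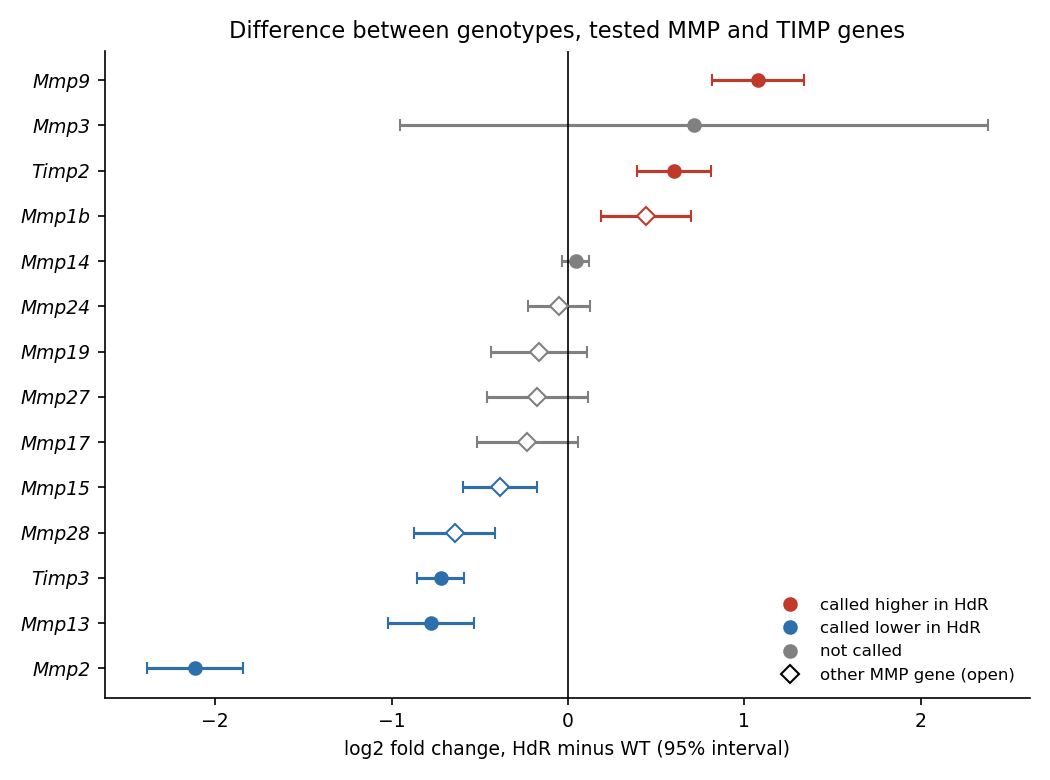
Log2 fold change, HdR minus WT, with its 95% limma interval (horizontal axis) for the 14 MMP and TIMP genes that reached the filter; filled circles are the 7 tested genes of the 10 and open diamonds are other MMP genes, red where called higher in HdR, blue where called lower and grey where not called. Mmp9 lies highest at 1.08 and Mmp2 lowest at -2.12, and the interval of Mmp3 runs from -0.95 to 2.38.

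Mmp3, Mmp10 and Mmp13 lie in the MMP gene cluster of chromosome 9, all on the plus strand. Of these, Mmp13 was called lower, Mmp3 was not called and Mmp10 was under the filter. Stromelysin-1 (Mmp3) and stromelysin-2 (Mmp10) degrade many matrix proteins and activate other MMPs, and collagenase-3 (Mmp13) cuts fibrillar collagen. In RefSeq promoters (250 bases before to 50 after the annotated start), found for 8 of the 10 genes, these 3 held the AP-1 letters TGANTCA, which read the same on both strands and which 7.81% of 32851 promoters hold, and also a TATA box (TATAAA on either strand, 13.6% of promoters). AP-1 is the dimer of FOS and JUN proteins known to act at MMP promoters. The part of these letters in the levels of the 3 genes was not tested. The stretches from 100 bases before to 20 after the start are shown, all read on the plus strand of GRCm38.p6. Capitals mark the AP-1 letters. The stretches are chr9:7445722-7445841 for Mmp3, chr9:7502242-7502361 for Mmp10 and chr9:7272414-7272533 for Mmp13.
Mmp3: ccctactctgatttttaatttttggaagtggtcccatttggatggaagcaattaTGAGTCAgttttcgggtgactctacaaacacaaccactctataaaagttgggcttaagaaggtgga
Mmp10: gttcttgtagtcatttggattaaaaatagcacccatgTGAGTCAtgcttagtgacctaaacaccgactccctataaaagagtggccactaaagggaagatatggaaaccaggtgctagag
Mmp13: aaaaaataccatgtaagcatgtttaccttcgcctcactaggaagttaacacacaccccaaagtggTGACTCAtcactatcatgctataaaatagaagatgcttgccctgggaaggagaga

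The AP-1 letters began at -46 in Mmp3, -63 in Mmp10 and -35 in Mmp13, counted from the annotated start. The promoters of Mmp11, Mmp14, Timp1, Timp2 and Timp3 did not hold these letters in this window, and the NF-κB consensus was found in 0 of the 8, against 8.46% of all promoters. The core of ETS sites (GGAA on either strand) was in 7 of the 8 and in 96% of all promoters.

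Mmp10 (chromosome 9, 7502352 to 7510240) was at 1.68, 1.46, 1.46 and 1.19 aligned bases per Mb in HdR 1 to 4, against 0.481, 0.328, 0.803 and 0.578 in WT. The groups did not overlap, and the HdR mean was 2.64 times the WT mean. A single value compared by an exact permutation test gave a two-sided p of 0.0286, the smallest that 70 regroupings allow, without adjustment for the 3 genes tested in this way. With no filter on low values, limma called it, at a log2 difference of 0.67 ± 0.11 (SE, adjusted p = 0.0015) and adjusted p of 0.00104 to 0.00641 when each library was also left out. These are low levels, 9 to 24 read-pair equivalents per HdR library and 5 to 14 per WT library.

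Mmp13 (chromosome 9, 7272514 to 7283331) was at 2.39, 2.18, 1.96 and 2.11 aligned bases per Mb in HdR, against 4.33, 5.54, 4.14 and 3.76 in WT. Every HdR library lay below the lowest WT library. The log2 fold change was -0.78 ± 0.12 (SE, limma adjusted p = 4.1e-05), and -0.40 with a pseudocount of 5. The HdR mean was 48.6% of the WT mean.

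Mmp3 (chromosome 9, 7445822 to 7455975) was at 1.63, 12.0, 0.696 and 0.848 aligned bases per Mb in HdR 1 to 4, against 0.549, 1.41, 1.12 and 0.879 in WT. HdR 2 stood far above the other 7 libraries, among which the genotypes overlapped. The log2 difference was 0.71 ± 0.69 (SE, limma adjusted p = 0.444), with a 95% interval of -0.95 to 2.38, and it was 0.04 without HdR 2 (adjusted p = 0.875). HdR 2 held 144 read-pair equivalents of Mmp3, against 7 to 24 in the other HdR libraries and 9 to 22 in WT. Its level was 7.36 times that of the next library. Across all tested genes, Cds2 in HdR 4 was the only other gene with 1 library at least 4-fold above each of the other 7.

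Most fibroblast markers, though not all, were highest in the library with the high Mmp3 level. Of 19 such markers, 14 were highest in HdR 2, and 0 to 2 in each other library. Of the 19, 17 averaged below 1 aligned base per Mb, where 1 read pair in HdR 2 is 0.0834. Part of this count therefore rests on few read pairs. Thy1 was not among the 14, at 1.94 aligned bases per Mb in HdR 2, against 1.88 to 2.36 in the other HdR libraries and 2.18 to 3.86 in WT, and Dcn was listed at 0 in HdR 2. Col1a1 was at 1.42 aligned bases per Mb in HdR 2, against at most 0.232 in the other HdR libraries and 0.184 in WT. Vim was at 6.53 in HdR 2, against 1.71 to 3.38 in the other HdR libraries and 2.36 to 3.15 in WT. Thbs2, which encodes a matrix glycoprotein and was singled out after its values were seen, was at 3.41 in HdR 2, against 0.0584 to 0.119 in the other HdR libraries and 0.1 to 0.415 in WT. The part of these genes in the Mmp3 level was not tested. Mmp10 shares 140 of its 1673 words of 50 bases with Mmp3 transcripts (8.37%), and the placement of reads from these words was not tested.

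**Figure D4:**
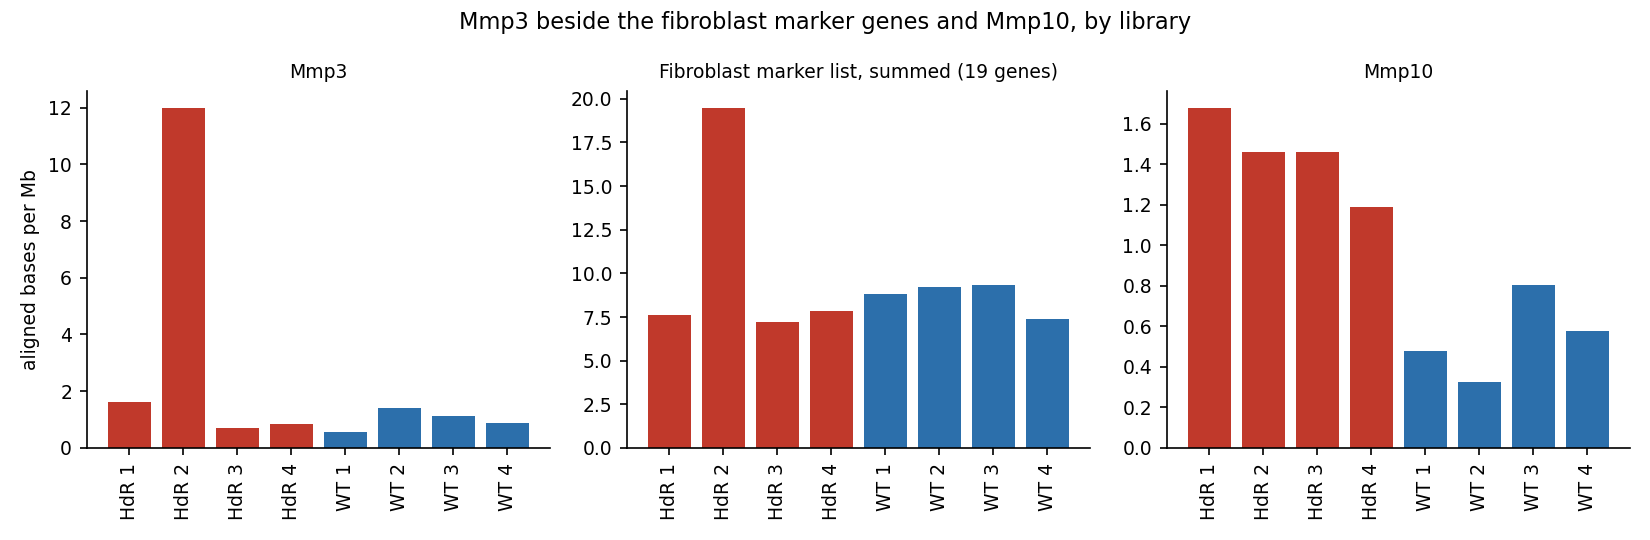
Level in each library (vertical axes, aligned bases per Mb, from 0) of Mmp3, of the summed fibroblast marker list and of Mmp10, with HdR libraries in red and WT libraries in blue. Mmp3 and the fibroblast sum are both highest in HdR 2, at 12.0 and 19.5, while Mmp10 is above the WT range in all 4 HdR libraries.

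Mmp14, which encodes a membrane-anchored MMP that cuts pericellular collagen and activates pro-MMP-2 (chromosome 14, 54431612 to 54445364, plus strand), was at 178.5, 182.1, 180.0 and 180.5 aligned bases per Mb in HdR, against 170.7, 172.4, 170.8 and 185.4 in WT. The groups overlapped only through WT 4, which was above all other libraries. The log2 fold change was 0.04 ± 0.036 (SE, limma adjusted p = 0.334), with a 95% interval of -0.03 to 0.12. Without WT 4 it was 0.07 (limma adjusted p = 0.108), also not called. In the comparison of all libraries, 83.9% of tested genes had a larger absolute change.

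Mmp11, which encodes stromelysin-3, was close to undetected. It had 0 to 2 read-pair equivalents per HdR library and 0 to 1 per WT library, with levels of 0.0694, 0, 0.154 and 0.26 aligned bases per Mb in HdR and 0, 0.0416, 0 and 0.059 in WT. No difference was detectable at this depth (exact permutation test, two-sided p = 0.171). Its annotation shares 155 exon bases (5.58%) with Chchd10 on the opposite strand, whose level was 4.70 in HdR and 6.49 in WT, and the strand setting of the summing is not stated.

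The TIMP genes also divided. Timp3, whose product stays bound to the matrix and also inhibits ADAM and ADAMTS enzymes (chromosome 10, 86300372 to 86349506, plus strand), was at 151.3, 132.8, 147.9 and 132.7 aligned bases per Mb in HdR, against 234.3, 261.7, 216.1 and 222.8 in WT. Every HdR library lay well below every WT library. The HdR mean was 60.4% of the WT mean, and the log2 difference was -0.72 ± 0.062 (SE, limma adjusted p = 1.47e-06). Syn3 overlaps 21.3% of the Timp3 exon bases on the opposite strand, and its own level was 1.29 in HdR and 0.997 in WT. Reads in the overlap cannot be assigned without strand.

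Timp2, whose product inhibits MMPs and bridges pro-MMP-2 to MMP-14 (chromosome 11, 118301069 to 118355740, minus strand), was at 22.3, 24.0, 20.3 and 25.9 aligned bases per Mb in HdR, against 13.3, 12.8, 17.8 and 15.9 in WT. All HdR libraries lay above all WT libraries, with the nearest pair at 20.3 and 17.8. The log2 fold change was 0.60 ± 0.098 (SE, limma adjusted p = 0.00016). Per kb of exon, Timp2 over Timp3 was 0.307, 0.377, 0.287 and 0.408 in HdR 1 to 4, against 0.119, 0.102, 0.172 and 0.149 in WT, so Timp3 remained the more abundant inhibitor in all 8 libraries.

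Timp1, which encodes a secreted inhibitor known to bind pro-MMP-9 (chromosome X, 20870166 to 20874735, plus strand), was at 1.48, 1.24, 1.11 and 1.03 aligned bases per Mb in HdR, against 0.745, 1.01, 0.592 and 0.764 in WT. The groups did not overlap, though HdR 4 and WT 2 nearly touched. The exact permutation test gave a two-sided p of 0.0286, the smallest possible and unadjusted. With no filter limma gave a log2 difference of 0.32 ± 0.10 (SE, adjusted p = 0.0417), and that call was lost without HdR 1 (adjusted p = 0.108), HdR 2 (0.08), HdR 3 (0.0615), WT 1 (0.0914), WT 3 (0.109) or WT 4 (0.0785). Its host gene Syn1 runs on the opposite strand with 0 shared exon bases and was at 0.0517 in HdR and 0.15 in WT.

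The genes whose log2 levels ran most like Mmp9 over the 8 libraries were Srrt, F3 and Lxn (Pearson r 0.995, 0.995 and 0.993), and those most like Mmp2 were Rab38, Ak3 and AU040320 (0.996, 0.996 and 0.995), out of 9727 genes compared. All these points share the split into 2 genotypes, which sets most of such a correlation.

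Outside the 10, 14 further MMP genes had a row, and 7 were tested. Mmp28, the gene of epilysin, an MMP known from keratinocytes, was at 6.88 ± 0.615 aligned bases per Mb in HdR and 11.4 ± 1.90 in WT (SD, n = 4 each), and it fell by 0.64 ± 0.11 on the log2 scale (SE, limma adjusted p = 0.000125). The membrane-type gene Mmp15 was lower, at 7.73 ± 0.995 in HdR and 10.4 ± 1.11 in WT, a fall by 0.39 ± 0.10 in log2 units (SE, limma adjusted p = 0.00461). Mmp1b, an interstitial-collagenase-like gene of the chromosome 9 cluster, was higher, at 2.09 ± 0.238 in HdR and 1.28 ± 0.20 in WT, a log2 difference of 0.44 ± 0.12 (SE, limma adjusted p = 0.00672). Mmp17, Mmp19, Mmp24 and Mmp27 were not called, with log2 fold changes of -0.23, -0.16, -0.05 and -0.17. Among the other 7, Mmp25 had the highest mean, at 0.405.

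Regulators of MMP activity moved in both directions, 6 of 15 tested higher and 4 lower, against 21.2% and 23.8% of all tested genes. Their median log2 fold change was 0.0722, against -0.0103 over all genes. Cd44, which encodes a cell surface receptor that can dock MMP-9, rose to 978 ± 33.5 aligned bases per Mb in HdR, against 670.3 ± 9.07 in WT. The urokinase gene Plau and its receptor gene Plaur, of the plasmin system that activates pro-MMPs, rose by 0.22 ± 0.05 and 0.30 ± 0.044 on the log2 scale (SE), and S100a10, Thbs1 and Itgav by 0.26, 0.21 and 0.16. Lcn2, whose product binds MMP-9, fell by 2.20 ± 0.12, the endocytic receptor gene Lrp1, known to clear MMPs, by 0.36 ± 0.038, and the MMP inducer gene Bsg by 0.15 ± 0.035 (log2, SE). Furin, which encodes a protease that activates pro-MMP-14, Pcsk6, Pcsk7, Serpine2 and Anxa2 were not called, at -0.01, 0.28, -0.04, -0.10 and 0.07. Pcsk6 was called without HdR 3 (limma adjusted p = 0.0197) or WT 2 (0.0334) and with limma-voom (0.0434), and Anxa2 without WT 3 (0.0205), with limma-voom (0.0412), with upper-quartile scaling (0.0149) and with library totals only (0.00863). Reck, the gene of a membrane-anchored MMP inhibitor, was under the filter at 0.41 ± 0.224 in HdR and 0.361 ± 0.173 in WT. Against a fold of 1.2, 1 regulator was called higher and 1 lower, while Mmp9, Timp2, Mmp2, Mmp13 and Timp3 all kept their calls.

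The list counts that follow stand against 21.2% of all tested genes called higher and 23.8% called lower. Among matrix substrates, 12 of 18 tested genes were higher and 2 lower, with a median log2 fold change of 0.255. The laminin chain genes Lamb1 and Lamb3 rose by 0.70 ± 0.048 and 0.37 ± 0.035, and the type IV collagen gene Col4a2 by 0.82 ± 0.089, while Col4a5 and Col4a6 fell by 0.53 ± 0.082 and 0.60 ± 0.15 (log2, SE). The number called higher ran from 10 to 12 when each library was left out, since Col17a1, Tnc and Col7a1 lost their calls without some libraries, and 6 were called higher and 1 lower against a fold of 1.2. Among transcription factor genes of the AP-1, ETS, NF-κB and RUNX families, 5 of 21 tested were higher and 12 lower, with a median of -0.237. Etv4, Ets1 and Runx1 rose by 1.10, 0.46 and 0.24, while Junb, Ets2 and Fos fell by 0.60, 0.29 and 0.74 on the log2 scale, and 2 were called higher and 2 lower against a fold of 1.2. Of 10 tested ADAM and ADAMTS genes, 5 were higher, and Adam12, Adamts1 and Adam8 had the smallest p-values of these, with log2 fold changes of 1.88, 0.46 and 0.29, while Adam9 was lower at -0.31. Adam15 was also called lower without WT 4 (limma adjusted p = 0.0164), with limma-voom (0.0434) and without HdR 4 and WT 4 together (0.0229), and against a fold of 1.2 the counts were 2 higher and 0 lower. A stricter filter (a level of 5 in 4 libraries) left 3 of these genes called higher.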

How the data were processed

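The authors deposited 1 table of signal: whole-number coverage, the sum of aligned bases per gene symbol and library, not scaled for depth or length. No header names this unit, which was inferred from the numbers: the commonest non-zero values were 302, 604 and 906, as for read pairs of 2 reads of 151 bases, and 16.9% of non-zero values under 10 steps were whole multiples. Division by 302 gives read-pair equivalents. Per the submitters' processing notes, reads were placed on GRCm38; aligner, annotation, strand and filters are not given in the sources used here. Symbols were placed with GENCODE M21 (GRCm38).

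Libraries were scaled with trimmed-mean (TMM) factors (30% of log ratios and 5% of mean levels trimmed) to aligned bases per Mb. Genes with a mean of at least 1 were fitted on log2(value + 1) with limma 3.58.1 (R 4.3.3; lmFit, eBayes with trend and robust variance), genotype as the only term, HdR minus WT, two-sided, and p-values were adjusted over 11870 genes by the Benjamini-Hochberg method. The calculation was tested on simulated data. The 3 genes under the filter were compared by an exact permutation test. Depth sets the precision; coverage is not a count of molecules, so no counting interval is given. The 10 genes, the gene lists and the rule for named genes (all 10, every tested family member and regulator, up to 3 called genes per direction of other lists, the 2 most abundant markers) were chosen with earlier results of these data known. Alternatives changed scaling, filter, pseudocount, variance model, tested fold, replicate block, depth and libraries. All 8 libraries entered the comparison. Mmp7, Mmp20 and Timp4 were not analysed here, and 1 tested regulator is counted but not reported here. Plots used matplotlib 3.10.9 under Python 3.11.15.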

Additional observations from a re-analysis of the deposited data

Results flagged for a closer look

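Mmp3 in HdR 2 was at 12.0 aligned bases per Mb, a gap to the next HdR library of 0.917 of the range of the 4 HdR libraries and past Dixon's critical value for 4 samples. Mmp14 in WT 4 was at 185.4 aligned bases per Mb, a gap of 0.883 of the WT range, also past that value. These were 2 of 20 combinations of gene and genotype examined, and chance flags about 1 in 20. WT 4 was also the WT library nearest to HdR on the first principal component, at 11.3, with HdR libraries between -19.3 and -15.5 and the other WT libraries between 17.8 and 20.3.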

How the results depend on the processing

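The 5 limma calls of Mmp2, Mmp9, Mmp13, Timp2 and Timp3 kept their direction and significance in each alternative in which the gene was tested, and Mmp3 and Mmp14 stayed uncalled. Over those alternatives the log2 fold change ranged from -2.54 to -1.29 for Mmp2, 0.51 to 1.48 for Mmp9, -1.0 to -0.40 for Mmp13, 0.50 to 0.68 for Timp2 and -0.76 to -0.67 for Timp3. The number of the 10 genes called higher was 4 with no filter, which adds Mmp10 and Timp1. It was 1 with a stricter filter (a level of 5 reached in 4 libraries), which drops Mmp9. That filter also dropped Mmp13 from the genes called lower. The number called higher was 3 without any single WT library, with upper-quartile or total scaling, with thinning and without HdR 4 and WT 4 together. Mmp10 or Timp1 then passed the filter. Leaving out each library gave 4561 to 5289 calls over all genes. Over all genes 5346 were called, and 887 against a fold of 1.2. Mmp1b and Mmp15 were not called against that fold (limma adjusted p = 0.54 and 0.713), and Mmp1b was not tested under the stricter filter. Upper-quartile scaling gave 57.7% of calls as higher, against 47.1%. HdR and WT libraries with the same number did not deviate together (correlations -0.222 to 0.0277). HdR 1 and HdR 4 ran most like WT 1 and WT 4, and HdR 2 and HdR 3 most like WT 3 and WT 4. With 4 libraries per genotype, these correlations cannot show whether the samples were paired. The replicate block gave 4755 calls and kept each call among the 10. Thinning each library to the smallest total gave 4460. Depth limits Mmp10, Mmp11 and Timp1 most. The fit of Mmp10 and Timp1 with no filter and each library left out was chosen after seeing the data.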
